A study of Mus musculus with 8 samples.

Results

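The proteasome is the multi-protein machine that breaks down ubiquitin-tagged proteins in the cytosol and nucleus, and its transcripts were followed here in cultured mouse hepatocytes, the cells that carry out most of the liver's metabolism. The list held 38 genes of the constitutive 20S core, the 19S base and lid with the assembly chaperones of the base, and the activators. A gene was represented by its brightest probe set, a group of oligonucleotides read together, among those whose platform symbol was exactly the gene's. This gave 37 of the 38 genes, out of 18194 genes with a single symbol on the array. The probe set of Psme2, an activator subunit, also carries the symbol Psme2b and was left out. All 37 passed the filter on dim probe sets and were usable on all 8 arrays.

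In the proteasome, a barrel of stacked rings, the 20S core, holds the proteolytic sites inside its beta rings, and its alpha rings form the gate. The 19S particle caps the barrel: the ring of ATPases in its base unfolds substrates, and its lid removes ubiquitin. Activators bind the same gate in place of the 19S particle. In liver, as in other tissues, the subunit genes are known to be transcribed together, with the transcription factors Nfe2l1 and Nfe2l2 among their regulators.

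The study measured hepatocytes of mice of a mixed C57BL6/129SVJ background, either wild type (WT) or lacking transglutaminase 2 (KO), a protein-crosslinking enzyme. The study asks about crosslinking of Sp1, a transcription factor, when the liver is injured. Cells of each genotype were incubated for 15 h with 0 or 100 mM ethanol, which made 4 groups of 2 arrays, named A and B. The labels give no age, do not say whether A and B came from separate animals or cultures, and do not give the deleted part of Tgm2. For the B array of both ethanol groups the treatment text describes a control incubation, but the sample titles say 100 mM, and the titles decided the group here.

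Tgm2 itself lay between 16656 and 16836 in WT and between 367.6 and 704.3 in KO (normalised intensity), so that both genotype labels were borne out by every array. Before normalisation, the trimmed mean intensity of both KO arrays without ethanol and of KO ethanol A was 113.3 to 117.5, and that of the remaining 5 arrays was 228.0 to 341.5. The spike-in controls bioC and bioB stood in a ratio of 0.94 to 1.06 on the A arrays of WT without ethanol, WT with ethanol and KO with ethanol, and 2.59 to 3.14 on the other 5. The ratio of the 3′ to the 5′ probe set of Pcx, a sign of RNA integrity, was 8.69 to 16.8 on the 4 arrays without ethanol, 26.7 and 44.5 in WT with ethanol, and 4.91 and 5.45 in KO with ethanol. The same ratio was much lower for the controls Gapdh (0.77 to 0.98) and Actb (1.15 to 1.62) on the 8 arrays. Both were highest in WT with ethanol. Summed hepatocyte markers (7 of 8 named on the array) were 64892 to 68870 in WT and 61146 to 63430 in KO. Hnf4a, a transcription factor of hepatocytes, was 1146 to 1650.5 in WT and 429.7 to 819.9 in KO. Without ethanol, 5 of the 7 were called lower in KO (Hnf4a, Apoa1, Cps1, Tat and Fgb). Ttr was called higher, at 0.21 (adjusted p = 0.017), and Alb was not called, at 0.16 (adjusted p = 0.37). With ethanol, 3 were called lower in KO (Hnf4a, Apoa1 and Cps1) and 0 higher. Summed macrophage markers (7) ranged from 4790 to 6815 in WT and 5852 to 8556 in KO, most of it Cd14. Of these 7, Cd68 was higher in KO, at 411 to 569.6 in WT and 1236 to 1859 in KO, whereas Csf1r and Lyz2 were lower in KO without ethanol, at -0.65 (adjusted p = 0.042) and -0.55 (adjusted p = 0.044), and Adgre1 was not called, at -0.55 (adjusted p = 0.079). Endothelial markers (5) summed to 303 to 420 in WT and 388 to 518 in KO, and stellate markers (6) to 143 to 256 and 113 to 431, with Col1a1, Lrat and Pdgfrb below 16 on average. Cholangiocyte markers (4) summed to 312 to 460 in WT and 768 to 1118 in KO, most of it Sox9, with Krt7 below 16 on average. Of these, only Sox9 was called in KO minus WT. Epcam was not called, at -0.875 without and 0.891 with ethanol (adjusted p = 0.31 in each). Krt19, too dim to be tested, averaged 49.3 in WT and 32.9 in KO without ethanol, and 16.1 and 15.5 with ethanol. The part of these differences in the results was not tested. In such bulk samples, fewer cells of a type and less RNA per cell cannot be told apart.

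The 250 bases before the RefSeq transcription start (GRCm38.p6) are printed for 5 genes that recur in the results: Psma4, Psmb3 and Psmc5 were lower in KO with and without ethanol, whereas Psmd10 and Psmd1 were higher in KO without ethanol. Capitals mark the GC box GGGCGG, bound by Sp1-type factors, the antioxidant response element core TGACNNNGC and the CCAAT box, each on either strand. A match on the opposite strand of the GC box reads CCGCCC, and of the CCAAT box ATTGG. Matches of a motif may overlap, as they do in the run of GC boxes of Psma4.
Psma4, chr9:54950609-54950858, plus strand: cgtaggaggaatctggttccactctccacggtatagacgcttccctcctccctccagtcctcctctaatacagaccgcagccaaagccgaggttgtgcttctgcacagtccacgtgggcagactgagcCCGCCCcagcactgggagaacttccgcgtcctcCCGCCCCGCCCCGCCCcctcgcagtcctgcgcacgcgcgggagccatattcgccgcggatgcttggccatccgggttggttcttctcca
Psmb3, chr11:97703184-97703433, plus strand: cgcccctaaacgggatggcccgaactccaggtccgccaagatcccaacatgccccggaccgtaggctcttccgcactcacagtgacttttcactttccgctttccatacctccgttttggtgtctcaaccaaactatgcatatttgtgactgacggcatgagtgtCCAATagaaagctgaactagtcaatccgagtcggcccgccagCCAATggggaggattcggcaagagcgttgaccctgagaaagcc
Psmc5, chr11:106255935-106256184, plus strand: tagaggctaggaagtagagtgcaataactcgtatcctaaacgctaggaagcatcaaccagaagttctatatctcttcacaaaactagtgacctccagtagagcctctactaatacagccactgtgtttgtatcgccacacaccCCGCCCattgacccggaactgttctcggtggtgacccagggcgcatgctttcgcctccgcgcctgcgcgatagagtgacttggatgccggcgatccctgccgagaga
Psmd10, chrX:140956712-140956961, minus strand: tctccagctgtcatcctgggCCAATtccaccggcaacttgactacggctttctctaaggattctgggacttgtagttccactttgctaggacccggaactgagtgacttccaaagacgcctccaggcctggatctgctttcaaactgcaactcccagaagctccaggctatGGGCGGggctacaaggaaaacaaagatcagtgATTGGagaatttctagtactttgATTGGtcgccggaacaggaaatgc
Psmd1, chr1:86064369-86064618, plus strand: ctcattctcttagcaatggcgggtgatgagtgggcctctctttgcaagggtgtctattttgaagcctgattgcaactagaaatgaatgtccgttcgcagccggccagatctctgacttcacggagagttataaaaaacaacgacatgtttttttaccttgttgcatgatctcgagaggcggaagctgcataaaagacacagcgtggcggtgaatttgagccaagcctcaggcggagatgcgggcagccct
Psma4 held 4 GC boxes, Psmc5 held 1, Psmb3 held 2 CCAAT boxes, Psmd10 held 1 GC box and 3 CCAAT boxes, and the Psmd1 window held none of the 3 motifs. A window was found for 31 of the 37 genes. Of these 31, 19 (61.3%) held a GC box, 12 (38.7%) a CCAAT box and 5 (16.1%) the antioxidant element, against 32.9%, 34.5% and 10.1% of all 27025 windows of this length. Of the genes with a window, the GC box lay in 8 of the 16 that were lower in KO without ethanol, in 1 of the 3 that were higher and in 10 of the 12 that were not called. A match is a description of the letters in the window and does not show that a factor binds there.

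Without ethanol, transcripts of 10 of the 14 genes of the proteolytic core and of 8 of 17 of the 19S particle were lower in KO than in WT hepatocytes. Of the 37 genes, 19 were called lower (51.4%) and 3 higher (8.11%), against 16.9% and 15.3% of all 19814 probe sets tested. A call is an adjusted p under 0.05 in limma's test with Benjamini-Hochberg adjustment over all 19814. The median log2 difference was -0.24 over the 37 genes and -0.04 over all probe sets tested, and with each array scaled by its trimmed mean the median over the 37 genes was -0.14. Among the 5946 probe sets within the intensity range of these genes, 29.4% were lower and 22.9% higher. That range runs from the dimmest to the brightest of the 37, and brightness was not matched within it. The 15 genes not called lay between -0.25 and 0.19.

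With ethanol in both genotypes, the same comparison on the other 4 arrays gave 18 genes lower (48.6%) and 1 higher (2.70%), against 15.1% and 14.0% of all probe sets tested. Of the 5946 probe sets within the intensity range of these genes, 24.1% were lower and 21.8% higher. The median was -0.23 over the 37 genes and -0.05 over all probe sets tested. Of the genes lower in KO, 13 were so in both comparisons, which is 68.4% of the 19 without ethanol and 72.2% of the 18 with ethanol. They were Psma2, Psma4, Psma5 and Psma6 of the alpha ring, Psmb3, Psmb4, Psmb5 and Psmb6 of the beta ring, the ATPases Psmc3 and Psmc5, and Psmd4, Psmd3 and Psmd13. The sign of the difference was the same in both comparisons for 29 of the 37 genes. Neither the overlap nor the shared sign was counted over all probe sets, so these counts have no background beside them. The 2 comparisons share no array but do share 1 estimate of the spread.

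**Figure D1:**
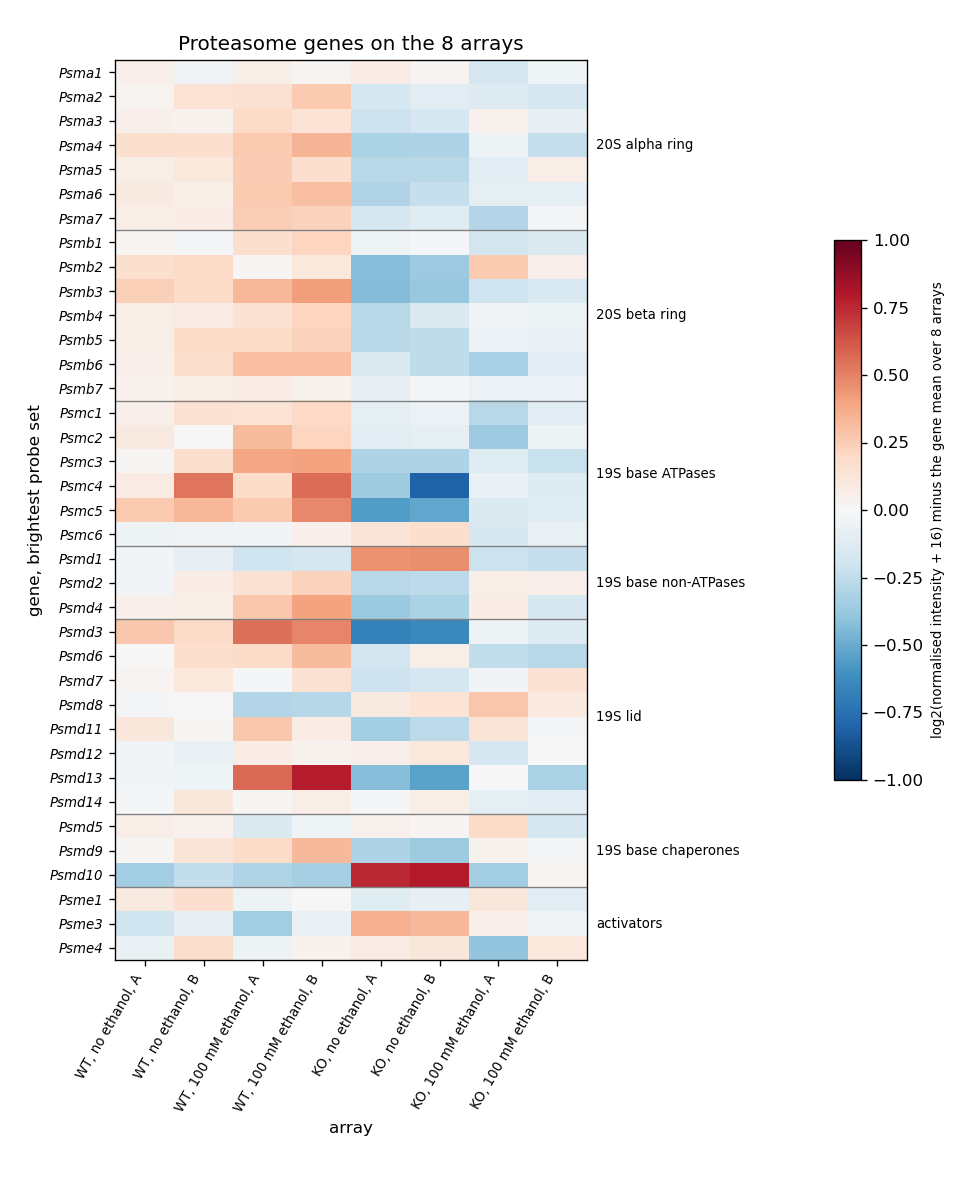
Each row is 1 gene and each column 1 array, and the colour is log2(normalised intensity + 16) minus the gene's mean over the 8 arrays. In 15 of the 37 rows all 4 WT arrays lie above and all 4 KO arrays below the gene's mean. Of these rows, 14 are in the 20S rings and ATPases and 1 (Psmd3) is in the lid. Such rows were not counted over all probe sets, so the 15 have no background beside them. Psmd10 and Psmd1 run the other way on the 2 KO arrays without ethanol.

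The median over the 37 genes of the deviation from the gene's own mean was 0.05 and 0.08 (log2) on the WT arrays without ethanol and 0.16 and 0.21 on those with ethanol. On the KO arrays the median was -0.19 and -0.15 without ethanol, and with ethanol -0.09 and -0.08. The 4 WT arrays thus lay above the 4 KO arrays, and the highest group was WT with ethanol. Between arrays of the same letter, A in KO minus A in WT had the same sign as B minus B for 35 genes without ethanol and 32 with ethanol. This was not counted over all probe sets.

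By subcomplex, most of the list belongs to the core and the 19S particle, and so did most of the genes called lower in KO. Of the 14 genes of the 20S core, 10 were lower and 0 higher in KO in each of both comparisons, at a median of -0.30 without and -0.31 with ethanol. Of the 17 genes of the 19S particle without its chaperones, 8 were lower and 1 was higher in each, at medians of -0.25 and -0.37. The 3 base chaperones had 1 gene lower and 1 higher without ethanol and none called with ethanol, and the 3 activators had 1 higher without ethanol and none called with it. At an unadjusted p under 0.05 in limma, 1 of the chaperones was lower with ethanol and 0 of the activators were called in either direction. These groups are too small for their shares to be set against each other, and no test between subcomplexes was made.

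**Figure D2:**
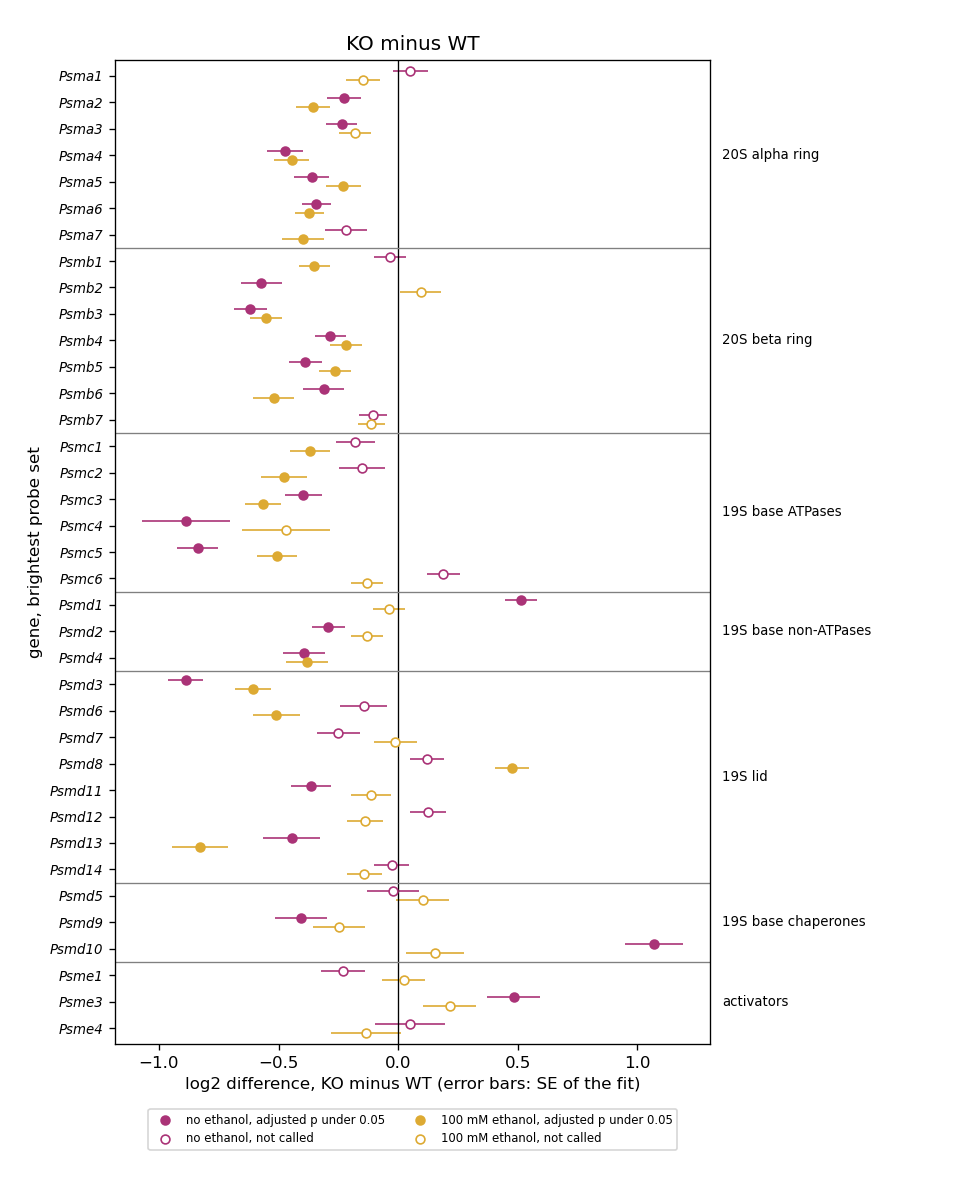
Points are the log2 difference KO minus WT of each gene's brightest probe set without and with 100 mM ethanol, bars are SE of the fit, and filled points passed an adjusted p of 0.05. Points of the 20S rings and ATPases lie mostly left of 0 in both conditions, from -0.89 to 0.19, while those of the base chaperones and activators lie on both sides.

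In the alpha ring, which gates the core, 5 of 7 genes were lower in KO without ethanol and 5 of 7 with ethanol. Psma4 had normalised intensities of 4859 and 4863 in WT and 3491 and 3509.6 in KO without ethanol, and 5213 and 5519 in WT and 4194 and 3688 in KO with ethanol. All 4 KO arrays lay below all 4 WT arrays. The log2 difference was -0.47 ± 0.075 (SE, adjusted p = 0.0013) without ethanol and -0.45 ± 0.075 (SE, adjusted p = 0.0021) with ethanol. Psma6 measured 4985 and 4899 in WT and 3802 and 3994 in KO without ethanol, and 5638 and 5795 in WT and 4423 and 4404 in KO with ethanol. Again no KO array reached a WT array, at -0.34 ± 0.061 (SE, adjusted p = 0.0025) and -0.37 ± 0.061 (SE, adjusted p = 0.0019). A second probe set of Psma6 went the other way without ethanol, at 0.23 (adjusted p = 0.024), and was not called with ethanol, at -0.13 (adjusted p = 0.17). Psma2 and Psma5 were 1.17-fold to 1.29-fold lower in both comparisons, whereas Psma3 was called without ethanol alone and Psma7 with ethanol alone. With trimmed-mean scaling Psma3 was at -0.03 without ethanol (adjusted p = 0.84). Psma1 measured 3201 and 3008 in WT and 3275 and 3156 in KO without ethanol, and 3219.6 and 3145 in WT and 2748 and 3000.4 in KO with ethanol, and its groups overlapped without ethanol, at 0.05 ± 0.072 (SE, adjusted p = 0.64).

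In the beta ring, 5 of 7 genes were lower in each comparison. Psmb3, a subunit without a catalytic site, measured 3748 and 3616 in WT and 2349.8 and 2439 in KO without ethanol, and 4002 and 4262 in WT and 2770.2 and 2855 in KO with ethanol. The KO values were the lower ones in each condition, with -0.62 ± 0.068 (SE, adjusted p = 0.00016) without ethanol and -0.55 ± 0.068 (SE, adjusted p = 0.00034) with it. Its second probe set was also lower, at -0.34 (adjusted p = 0.0094) and -0.42 (adjusted p = 0.0036). Of the 3 subunits with a catalytic site, 2 were called. Psmb5, which carries the chymotrypsin-like site, measured 3786 and 4121 in WT and 2994 and 3036 in KO without ethanol, and 4108 and 4246 in WT and 3478 and 3471 in KO with ethanol. It was lower, at -0.39 (adjusted p = 0.0021) and -0.26 (adjusted p = 0.016). Psmb6, which carries the caspase-like site, measured 3432 and 3744 in WT and 2996 and 2781 in KO without ethanol, and 4079.5 and 4094 in WT and 2645 and 3060.2 in KO with ethanol. Its KO arrays stayed below WT in each condition, at -0.31 ± 0.086 (SE, adjusted p = 0.021) and -0.52 ± 0.086 (SE, adjusted p = 0.0019). Psmb7, which carries the trypsin-like site, measured 8064 and 8219 in WT and 7418 and 7721 in KO without ethanol, and 8242 and 8052 in WT and 7547 and 7529 in KO with ethanol. Its differences were not called, at -0.11 ± 0.058 (SE, adjusted p = 0.2) and -0.11 ± 0.058 (SE, adjusted p = 0.18).

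Psmb4, at -0.28 (adjusted p = 0.009) and -0.22 (adjusted p = 0.033), was lower in both comparisons, and Psmb1 with ethanol alone, at -0.35 (adjusted p = 0.0036). The call of Psmb4 without ethanol ended with scaling by the trimmed mean, which gave 0.04 (adjusted p = 0.78). Its second probe set gave 0.10 (adjusted p = 0.78). Psmb2, another non-catalytic subunit, measured 2307 and 2363 in WT and 1534 and 1599 in KO without ethanol, and 2082 and 2226 in WT and 2478 and 2132 in KO with ethanol. It was low on the 2 KO arrays without ethanol and near the WT level on those with ethanol. The difference was -0.57 ± 0.086 (SE, adjusted p = 0.001) without ethanol and 0.09 ± 0.086 (SE, adjusted p = 0.46) with ethanol.

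Among the 6 ATPases of the base, 3 were lower without ethanol and 4 with ethanol. Psmc5 (Rpt6) measured 2347 and 2460.4 in WT and 1316 and 1358 in KO without ethanol, and 2347 and 2731 in WT and 1763 and 1790.3 in KO with ethanol. The lowest values were those of KO without ethanol, and KO with ethanol lay between them and WT. The difference was -0.84 ± 0.085 (SE, adjusted p = 0.00011), a 1.79-fold lower level, without ethanol, and -0.51 ± 0.085 (SE, adjusted p = 0.0021) with ethanol. Psmc3 (Rpt5) measured 2480.0 and 2752 in WT and 1984 and 1978 in KO without ethanol, and 3216 and 3262 in WT and 2257 and 2110.0 in KO with ethanol. WT with ethanol was its highest group, and KO was lower, at -0.40 (adjusted p = 0.0035) and -0.57 (adjusted p = 0.00058).

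Psmc4 (Rpt3) measured 2614 and 3575 in WT and 1929 and 1404 in KO without ethanol, and 2803 and 3643 in WT and 2349.8 and 2259.8 in KO with ethanol. Its arrays A and B lay far apart in WT and in KO without ethanol, and its difference of -0.89 ± 0.18 (SE, adjusted p = 0.0051) had the largest SE of the genes called, and its call ended without KO B (-0.66, adjusted p = 0.052). Its second probe set gave -0.27 (adjusted p = 0.027). Psmc1 and Psmc2 were called with ethanol alone, at -0.37 (adjusted p = 0.0087) and -0.48 (adjusted p = 0.0055), and Psmc6 in neither comparison. A second probe set of Psmc2 was lower with ethanol too, at -0.38 (adjusted p = 0.0042).

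Of the 3 non-ATPase subunits of the base, 2 were lower and 1 was higher in KO without ethanol, and 1 was lower with ethanol. Psmd1 (Rpn2), a scaffold subunit of the base, measured 2245 and 2154 in WT and 3124 and 3169 in KO without ethanol, and 1987 and 2038 in WT and 1971 and 1951 in KO with ethanol. The 2 KO arrays without ethanol stood above the 6 others, and the remaining 3 groups lay close together. KO was higher by 0.51 (adjusted p = 0.00042) without ethanol and differed by -0.04 ± 0.067 (SE, adjusted p = 0.72) with ethanol. Psmd4 (Rpn10), a ubiquitin receptor, measured 3282 and 3300.1 in WT and 2456 and 2548 in KO without ethanol, and 3841 and 4194 in WT and 3339 and 2834 in KO with ethanol. It was lower in KO, at -0.39 (adjusted p = 0.0075) and -0.38 (adjusted p = 0.01), although its second probe set was not called, at -0.15 and -0.05 (adjusted p = 0.41 and 0.79). Psmd2 (Rpn1), which docks shuttle factors, was lower without ethanol alone, at -0.29 (adjusted p = 0.009).

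Of the 8 lid genes, 3 were lower in each comparison and 1 was higher with ethanol. Psmd3 (Rpn3) measured 1946 and 1847 in WT and 1006 and 1027 in KO without ethanol, and 2364 and 2269 in WT and 1554 and 1475 in KO with ethanol. Its 2 KO arrays without ethanol read about 1.85-fold below WT, and KO with ethanol remained below both WT groups. The difference was -0.89 ± 0.074 (SE, adjusted p = 3.6e-05) without and -0.61 ± 0.074 (SE, adjusted p = 0.00034) with ethanol. Psmd13 (Rpn9) measured 1057 and 1047 in WT and 798 and 739 in KO without ethanol, and 1599.5 and 1864 in WT and 1078 and 864 in KO with ethanol. The WT arrays with ethanol stood above all others, and KO was lower, at -0.45 (adjusted p = 0.017) without and -0.83 (adjusted p = 0.00084) with ethanol. Its second probe set was lower without ethanol, at -0.61 (adjusted p = 0.025), and not called with ethanol, at -0.43 (adjusted p = 0.097).

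Psmd8 (Rpn12) measured 6241 and 6313 in WT and 6709.9 and 6941 in KO without ethanol, and 5168 and 5189.6 in WT and 7671 and 6752 in KO with ethanol. It was the one gene called higher in KO with ethanol, at 0.47 ± 0.071 (SE, adjusted p = 0.0012), with its lowest values in WT with ethanol. Psmd6 (Rpn7) was lower with ethanol, at -0.51 (adjusted p = 0.0042), and so was its second probe set, at -0.61 (adjusted p = 0.0027). Psmd11 (Rpn6) was lower without ethanol, at -0.37 (adjusted p = 0.0087), but with trimmed-mean scaling it was at -0.01 (adjusted p = 0.95), and its probe sets disagreed. The second brightest was not called, at 0.15 (adjusted p = 0.16), and the next in brightness were lower, at -0.70 (adjusted p = 0.00022) and -1.02 (adjusted p = 0.00053). Psmd14 (Rpn11), the deubiquitinase of the lid, measured 3391 and 3723 in WT and 3391 and 3580.4 in KO without ethanol, and 3464 and 3598 in WT and 3230.4 and 3169 in KO with ethanol. It was not called, at -0.03 ± 0.072 (SE, adjusted p = 0.8) and -0.14 ± 0.072 (SE, adjusted p = 0.17), and neither were Psmd7 and Psmd12.

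**Figure D3:**
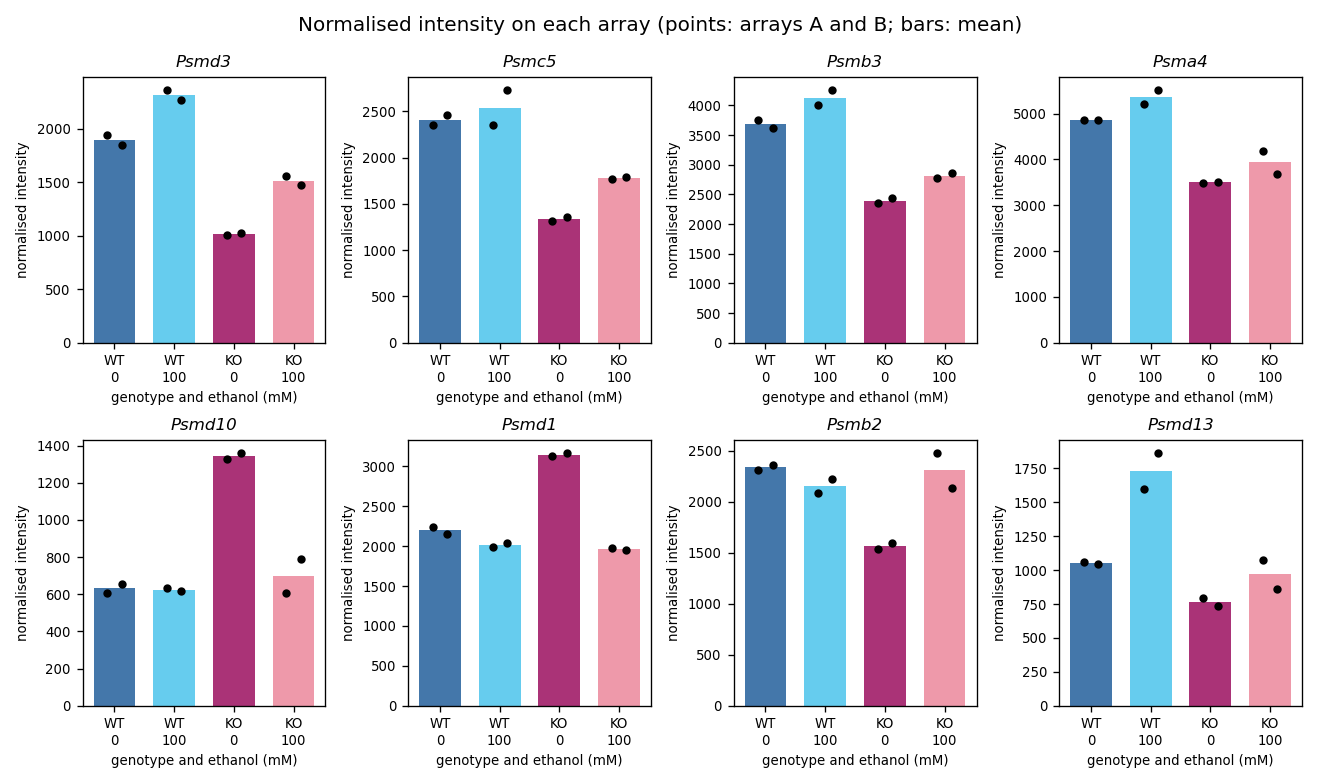
Each panel shows the normalised intensity of 1 gene on the 8 arrays by group, on a linear axis from 0, with a bar at the group mean. Psmd3, Psmc5, Psmb3 and Psma4 are lower in KO in both conditions, Psmd10 and Psmd1 are high on the 2 KO arrays without ethanol alone, Psmb2 is low on those 2 arrays, and Psmd13 is high in WT with ethanol.

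The base chaperones escort ATPases during assembly and are absent from the finished particle. Psmd10 (gankyrin), also known as an oncoprotein of liver cancer, measured 608 and 656 in WT and 1328 and 1361 in KO without ethanol, and 631 and 615 in WT and 608 and 792 in KO with ethanol. The 2 KO arrays without ethanol lay far above the 6 others, which were between 608 and 792. The difference was 1.07 ± 0.12 (SE, adjusted p = 0.00019), a 2.10-fold higher level, without ethanol and 0.15 ± 0.12 (SE, adjusted p = 0.39) with ethanol. Psmd9 (p27) went the other way without ethanol, with 414 and 449 in WT and 327 and 316 in KO without ethanol, and 468 and 518 in WT and 420.5 and 405 in KO with ethanol. It was lower in KO, at -0.41 (adjusted p = 0.018), and it was not called with ethanol, at -0.25 ± 0.11 (SE, adjusted p = 0.12). Psmd5 was called in neither comparison.

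Of the activators, Psme3 (PA28gamma), which is nuclear and does not need ubiquitin, measured 649.7 and 708 in WT and 964 and 944 in KO without ethanol, and 584 and 714 in WT and 776 and 730.3 in KO with ethanol. Both KO arrays without ethanol were above all others, at 0.48 ± 0.11 (SE, adjusted p = 0.0087), and with ethanol the difference was 0.22 ± 0.11 (SE, adjusted p = 0.18). Its second probe set was higher in KO in both comparisons, at 0.64 (adjusted p = 0.00056) and 0.73 (adjusted p = 0.0003). Psme1 and Psme4 were not called.

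Other probe sets gave a mixed picture. For 15 of the 37 genes, 24 further probe sets were tested. Of the 15 that belonged to genes called without ethanol, 6 were called the same way, 1 the other way (Psma6) and 8 were not called. With ethanol, 5 of 13 were called the same way, 0 the other way and 8 were not called. The brightest probe sets of Psma6 and Psmc2 carry the suffix x and those of Psmd11 and Psme4 the suffix s, which mark probes that can match transcripts of other genes.

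**Figure D4:**
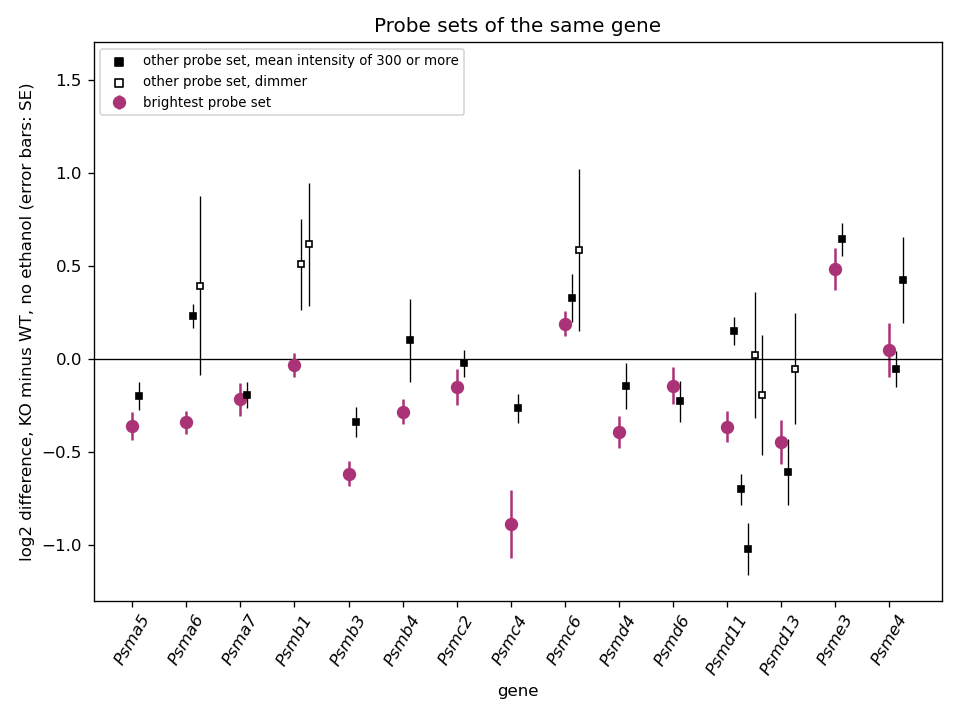
For the 15 genes with more than 1 tested probe set, the log2 difference KO minus WT without ethanol is plotted for the brightest probe set (circles) and the others (squares), with SE bars. Probe sets lie on the same side of 0 for Psmb3, Psmc4 and Psme3 and on both sides for Psma6, Psmb4 and Psmd11.

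How firmly the 2 genotype comparisons stand depends on single arrays and on the variance model. Without ethanol, leaving out KO A gave 12 calls, and fitting the variance prior without an intensity trend gave 13. Scaling by the trimmed mean turned the split of 3 higher and 19 lower into 6 and 11 and ended 8 calls, those of Psma2, Psma3, Psma5, Psma6, Psmb4, Psmb6, Psmd2 and Psmd11. With ethanol, leaving out WT ethanol B gave 12 calls, and counting both ethanol B arrays as untreated left 1. With both ethanol B arrays left out, 16 genes were lower and 3 higher. Of the 22 calls without ethanol, 11 held whichever 1 of the 8 arrays was left out, and of the 19 with ethanol 11 did. None changed sign, and those of Psma2, Psma3, Psma5, Psma7, Psmb4, Psmb5, Psmb6, Psmc1, Psmc2, Psmc4, Psmd2, Psmd4, Psmd9, Psmd11, Psmd13 and Psme3 ended in at least 1 of the 2 comparisons. Psma4, Psmb3, Psmb5, Psmc3, Psmc5, Psmd3 and Psmd10 kept their calls without ethanol under all alternatives run on the brightest probe set. Leaving out the arrays that were dim before normalisation could not be run without ethanol, since both KO arrays there were dim. The WT arrays without ethanol were not dim.

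The spike-in ratio allowed a comparison among arrays alike in it. On the 5 arrays with the higher ratio, the median KO minus WT difference was -0.28 without ethanol (30 of 37 genes below 0) and -0.26 with ethanol (33 below 0). On the 3 with the lower ratio, which hold no KO array without ethanol, it was -0.24 with ethanol (32 below 0). These values rest on 1 or 2 arrays a group, have no test and were not computed over all probe sets.

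With ethanol in WT cells, the share of proteasome genes called was close to that of all probe sets. Of the 37, 2 were called higher (5.41%) and 0 lower by limma, against 1.67% and 3.91% (5.58% in all) of the probe sets tested. At an unadjusted p under 0.05 in limma, 9 were higher and 1 lower, which was not counted over all probe sets. The median was 0.10 over the 37 genes and 0.01 over all. Of the 37, 28 lay above 0, against 10311 of the 19814 probe sets tested. The 28 included all 7 genes of the alpha ring (0.04 to 0.21) and all 6 ATPases (0.05 to 0.31). Genes called were Psmd13, at 0.71 ± 0.12 (SE, adjusted p = 0.0094), and Psmc3, at 0.31 ± 0.076 (SE, adjusted p = 0.047). For both, the 2 arrays with ethanol lay above the 2 without, as given above. The second probe set of Psmd13 was not called, at 0.43 (adjusted p = 0.22). That of Psme3 was called lower, at -0.52 (adjusted p = 0.0092), while its brightest was not called, at -0.07 (adjusted p = 0.84). The call of Psmc3 ended when any 1 of 6 arrays was left out (adjusted p up to 0.35) and that of Psmd13 when any 1 of 3 was (up to 0.091). The count was 0 or 1 without any 1 of the WT arrays or of the KO arrays without ethanol, and 7 without either KO array with ethanol. Counting both ethanol B arrays as untreated gave 0 in limma, and 0 genes were then at an unadjusted p under 0.05.

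In KO cells, 9 genes were higher with ethanol (24.3%) and 3 lower (8.11%), against 11.4% and 10.8% of all probe sets tested. Among the 5946 probe sets within the intensity range of these genes, 22.7% were higher and 18.1% lower. The share of the list that was higher was thus near that of the probe sets in this range, which were not matched in brightness. The 9 genes higher were Psma5, Psmb2, Psmb3, Psmc5, Psmd2, Psmd4, Psmd3, Psmd11 and Psmd9. The second brightest probe set of Psmd11 was called lower, at -0.32 (adjusted p = 0.017), and those of Psma5 and Psmb3 were not called, at -0.01 (adjusted p = 0.95) and -0.08 (adjusted p = 0.47). The next of Psmd11 in brightness were called higher, at 0.49 (adjusted p = 0.0034) and 0.56 (adjusted p = 0.02). Of the 9 genes, all but Psmb2 lay, with ethanol, below the WT mean of the same condition. This comparison shares the 2 KO arrays without ethanol with that of KO and WT without ethanol, in which the 9 genes lay between -0.89 and -0.29. Among the 9 called, the largest rises were those of Psmd3, at 0.57 ± 0.074 (SE, adjusted p = 0.0013), Psmb2, at 0.55 ± 0.086 (SE, adjusted p = 0.0027), and Psmc5, at 0.41 ± 0.085 (SE, adjusted p = 0.0096). In each, both ethanol arrays read above both others.

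Psmd10, Psmd1 and Psmc6 were lower with ethanol in KO. Psmd10 changed by -0.94 ± 0.12 (SE, adjusted p = 0.0012) and Psmd1 by -0.68 ± 0.067 (SE, adjusted p = 0.00042), so that with ethanol the KO arrays of both genes lay near those of WT (Psmd10 at 608 and 792 against 608 to 656 on the WT arrays, and Psmd1 at 1971 and 1951 against 1987 to 2245). Psmc6 (Rpt4) measured 2724 and 2748 in WT and 3082 and 3159 in KO without ethanol, and 2767 and 2910.4 in WT and 2517 and 2667 in KO with ethanol. It was lower, at -0.27 (adjusted p = 0.021), and its second brightest probe set was lower too, at -0.88 (adjusted p = 0.0020). For Psme3 the second probe set was called lower, at -0.43 (adjusted p = 0.008), and the brightest was not called, at -0.335 (adjusted p = 0.057).

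**Figure D5:**
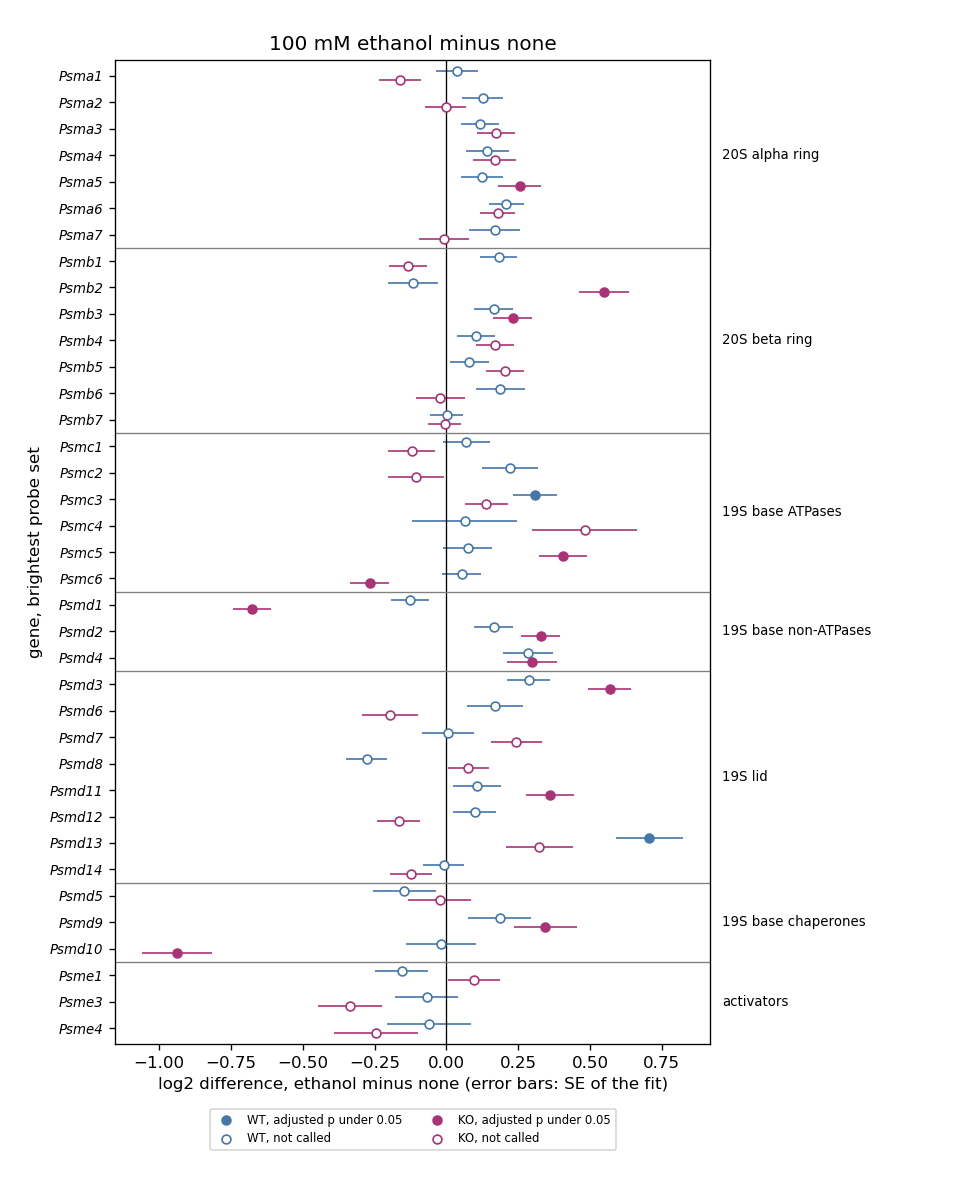
Points are the log2 difference of ethanol minus none for each gene in WT and KO, with SE bars, and filled points passed an adjusted p of 0.05. In WT the points crowd between -0.28 and 0.31 apart from Psmd13 at 0.71, whereas in KO they spread from -0.94 (Psmd10) to 0.57 (Psmd3).

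The KO split by ethanol depended on the scaling: trimmed-mean scaling gave 4 higher and 5 lower, at a median of -0.06 in place of 0.10, and ended the calls of Psma5, Psmb3, Psmd2, Psmd4 and Psmd11. Counting the ethanol B arrays as untreated left 0 calls in limma, with 5 genes at an unadjusted p under 0.05, leaving KO ethanol B out gave 22, and leaving out KO A or KO B without ethanol gave 4 each. Psmb2, Psmd1, Psmd3 and Psmd10 kept their calls under all alternatives run on the brightest probe set but that recount. Leaving out the dim arrays could not be run here, since both KO arrays without ethanol were dim. The comparisons in WT and KO share no array. They had no called gene in common, and the sign was the same for 23 of the 37. No such count was made over all probe sets.

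The ethanol effect was then compared between the genotypes in the same fit. It was called different for 3 genes, 1 higher in KO (2.70%) and 2 lower (5.41%), against 3.57% and 1.78% (5.35% in all) of the probe sets tested. Psmb2 differed by 0.67 ± 0.12 (SE, adjusted p = 0.017), since its level changed by -0.12 in WT and 0.55 in KO. Psmd10 differed by -0.92 ± 0.17 (SE, adjusted p = 0.018), from -0.02 in WT and -0.94 in KO, and Psmd1 by -0.55 ± 0.094 (SE, adjusted p = 0.013), from -0.13 in WT and -0.68 in KO. These differences also draw on the 2 KO arrays without ethanol, so they are not separate from the calls of these genes given above. Leaving out 1 of 6 arrays (each array without ethanol or of WT with ethanol) ended the call of each of the 3, with adjusted p up to 0.093, and leaving out KO ethanol B gave 12 calls.

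Genes that work with the proteasome were followed from a list of 35, of which 26 were named on the array and 24 tested. In KO without ethanol 5 were higher and 7 lower, against 32.3% of all probe sets called in either direction, and with ethanol 1 was higher and 6 lower, against 29.1%. With ethanol the share called was near that background. Among the inducible subunits that replace catalytic ones, Psmb10 measured 1634 and 1666 in WT and 1051 and 1108 in KO without ethanol, and 1722 and 1769 in WT and 1055 and 1063 in KO with ethanol. All KO arrays lay far below WT, at -0.61 ± 0.074 (SE, adjusted p = 0.0003) and -0.71 ± 0.074 (SE, adjusted p = 0.00013). Psmb8 was higher in KO without ethanol, at 0.37 ± 0.11 (SE, adjusted p = 0.032), and Psmb9 was not called. The 20S assembly chaperone Psmg1 was lower in both comparisons, at -0.38 (adjusted p = 0.0085) and -0.46 (adjusted p = 0.0042), and the maturation factor Pomp with ethanol, at -0.31 (adjusted p = 0.015).

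The deubiquitinase Usp14, which trims ubiquitin chains on the 19S particle, measured 1669 and 1626 in WT and 2363 and 2564 in KO without ethanol, and 1441 and 1379 in WT and 1552 and 2053 in KO with ethanol. Like Psmd1 and Psmd10, it was highest on the KO arrays without ethanol, at 0.58 ± 0.12 (SE, adjusted p = 0.005), and fell with ethanol in KO, at -0.46 ± 0.12 (SE, adjusted p = 0.022). The shuttle factor Rad23b measured 2815 and 3327 in WT and 4685 and 4530.0 in KO without ethanol, and 2633 and 2855 in WT and 3039 and 3395 in KO with ethanol. It ran the same way, at 0.59 ± 0.095 (SE, adjusted p = 0.0014) and, with ethanol in KO, -0.52 ± 0.095 (SE, adjusted p = 0.0052). The proteasome inhibitor Psmf1 (PI31) measured 541 and 524 in WT and 378 and 309.7 in KO without ethanol, and 572 and 524 in WT and 691 and 562 in KO with ethanol. It was lower in KO without ethanol, at -0.61 ± 0.13 (SE, adjusted p = 0.0069), rose with ethanol in KO, at 0.84 ± 0.13 (SE, adjusted p = 0.003), and was the only one of the 24 whose ethanol effect was called different between genotypes, at 0.80 ± 0.19 (SE, adjusted p = 0.044).

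The shuttle Ubqln4 measured 948 and 993 in WT and 729 and 828 in KO without ethanol, and 1325 and 1382 in WT and 764 and 801 in KO with ethanol. It was lower in KO, at -0.32 (adjusted p = 0.026) without and -0.78 (adjusted p = 0.00027) with ethanol, and rose with ethanol in WT, at 0.47 (adjusted p = 0.018), the one gene of the 24 called there. Vcp, the ATPase that extracts ubiquitin-tagged proteins, was lower in KO, at -0.25 (adjusted p = 0.02) and -0.35 (adjusted p = 0.0038). Its cofactors went opposite ways without ethanol, Nploc4 at -0.39 ± 0.11 (SE, adjusted p = 0.022) and Ufd1 at 0.50 ± 0.1 (SE, adjusted p = 0.0045). The transcription factor Nfe2l1 measured 596 and 496 in WT and 475 and 418 in KO without ethanol, and 678 and 597 in WT and 656 and 522 in KO with ethanol. Its arrays A and B differed by about as much as its groups, and neither it nor Nfe2l2 was called in any comparison.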

How the data were processed

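Total RNA of primary hepatocytes was labelled as biotinylated cRNA by in vitro transcription and hybridised to 1 Affymetrix array per sample, per the labels' protocols. The authors deposited linear signal intensities for 45101 probe sets, including 64 controls. How probes were summarised and scaled is not given in the sources used here. On WT ethanol B, 5410 values were unusable (5403 of them 0), which left 39627 complete probe sets. Trimmed means left out 2% at each end.

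Intensities were quantile normalised over the 8 arrays, and log2(intensity + 16) was taken, a scale that understates changes of dim genes. The upper 50% by mean (5.4 or more on the log2 scale) were tested. limma 3.58.1 in R 4.3.3 fitted 4 group means to all 8 arrays with an intensity trend in the variance prior (4 residual and 5.43 prior degrees of freedom). P-values were adjusted by Benjamini-Hochberg over all 19814 probe sets within each of 5 contrasts, and a probe set was called under 0.05. The fit was tested on simulated data. The number of arrays limits the precision, and the p-values reflect no more than how far these particular samples differ, possibly for technical reasons.

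Groups followed the titles. Symbols came from the platform annotation, in which 34958 probe sets had 1 symbol, 932 several and 9211 none. Every gene of the list may be named. Per-array values were given for called genes with the largest differences and for up to 4 genes of a subcomplex, plus genes singled out for their role. The genes and lists were chosen with earlier results of these data known. Promoter windows came from RefSeq GRCm38.p6. The alternatives tried are given with the limits of the results.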

Additional observations from a re-analysis of the deposited data

Results flagged for a closer look

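For 3 genes the effect of ethanol differed between the genotypes by a test of the difference itself in limma. For Psmb2 the ethanol effect in KO minus that in WT was 0.665 on the log2 scale (SE 0.12, adjusted p = 0.017), and both KO arrays with ethanol read above both KO arrays without. For Psmd1 it was -0.55 (SE 0.094, adjusted p = 0.013) and for Psmd10 -0.919 (SE 0.17, adjusted p = 0.018), and in both genes the 2 KO arrays with ethanol read below those without. No group has over 2 arrays, so no array could be tested as standing apart within its group.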

How the results depend on the processing

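Counts of genes called moved as follows. Without an intensity trend in the variance prior they were 13 and 12 for KO minus WT without and with ethanol, 0 and 4 for ethanol in WT and KO, and 0 for the difference of the ethanol effects (at an unadjusted p under 0.05, 4 and 3 genes for the counts of 0). For 15 genes, which do not include Psmb2, Psmd1 and Psmd10, a second probe set was tested. With their second brightest probe set the counts were 5, 6, 1, 6 and 0 (5 at an unadjusted p under 0.05 for the last). With the brightest probe set of the same 15 genes they were 9, 10, 1, 5 and 0. The counts over the whole list with the ethanol B arrays counted as untreated were 1 for KO minus WT with ethanol. They were 0 for all 3 ethanol contrasts (0, 5 and 2 unadjusted). With those arrays left out they were 22 for ethanol in KO and 9 for the difference. Keeping probe sets with a missing value gave 7 and 1 for these, and fitting the 2 groups compared alone gave 7 for ethanol in KO and 6 in WT. For ethanol in WT, no filter gave 1, the top 30% 4, trimmed-mean scaling 1, the spike-in ratio as a term 4, and leaving out the dim arrays 6. Leaving out 1 array at a time gave 12 to 29, 12 to 23, 0 to 7, 4 to 22 and 0 to 12.

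Under trimmed-mean scaling Psmb4 without ethanol reversed to 0.044. With the second brightest probe set Psma6 (0.227), Psmb4 (0.098) and Psmd11 (0.15) reversed for KO minus WT without ethanol, and Psma5 (-0.008), Psmb3 (-0.085) and Psmd11 (-0.316) for ethanol in KO. The cause was not tested. Trimmed-mean scaling shifted the median of all probe sets by 0.111 for KO minus WT with ethanol, to 0.065, and the median of the proteasome genes there was -0.263. Without ethanol it moved from -0.237 to -0.137.

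The letters A and B were not taken to pair samples. A minus B differences correlated at 0.204 to 0.302 among WT without ethanol, WT with ethanol and KO with ethanol. In these groups array A had the lower spike-in ratio and array B the higher, so letter and spike-in ratio cannot be told apart. In KO without ethanol both arrays had the higher ratio, and its correlations with the other groups were 0.022 to 0.031. With the replicate letter as a block the counts were 23, 19, 1, 12 and 3, against 22, 19, 2, 12 and 3. The 2 arrays a group and the unequal array brightness limit what small differences can be called.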

Other observations

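Further genes around the proteasome were called as follows. The lid-associated subunit Sem1 was lower in KO with ethanol, at -0.33 (adjusted p = 0.0059), and the ubiquitin-activating enzyme Uba6 was higher, at 0.37 (adjusted p = 0.044). In KO without ethanol, the 19S-bound deubiquitinase Uchl5 was lower, at -0.34 (adjusted p = 0.047), and Ngly1, whose product processes Nfe2l1, was higher, at 0.28 (adjusted p = 0.049). With ethanol in KO, the assembly chaperone Psmg3 was higher, at 0.58 (adjusted p = 0.043), and the inducible subunit Psmb8, which was higher in KO without ethanol, was lower, at -0.39 (adjusted p = 0.038).

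Nploc4 rose with ethanol in KO, at 0.55 (adjusted p = 0.0071). The tissue-specific subunits Psmb11 and Psma8 were too dim to be tested.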
